A study of Mus musculus with 3 samples.

Results

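Type I interferon response genes were followed as a set of 10 genes, namely Isg15, Ifit1, Ifit2, Ifit3, Rsad2, Oasl1, Usp18, Irf7, Ifi204 and Ifi47, in recipient leukocytes of the reperfused mouse lung. The genes were given by name, and all 10 were found among the 32285 genes of the deposited tables. The 3 conditions were measured by 1 single-cell RNA-Seq library each, of cells pooled from 2 mice, all on the C57BL/6 (B6) background. Naive left lungs had no transplantation. The other libraries came from syngeneic left lung transplants, CD45.2+ donor to CD45.1+ recipient, kept cold (4 °C) for 60 minutes, then warm (28 °C) for 45 minutes, and taken after 2 hours or 3 days of reperfusion. All libraries were sorted for CD45.1, which marks recipient cells in the grafts. The labels give the same sort for the naive C57BL/6J mice, and the sources used here do not say how it was applied to them. The paper lists its B6 mice with CD45.1 as a separate line, B6.SJL-Ptprca Pepcb/BoyJ. Naive and recipient cells may thus differ in line, which cannot be told apart from transplantation. With 1 library per condition there was no replicate and no test. Intervals below are 95% intervals that cover counting error only.

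Type I interferons bind a receptor made of IFNAR1 and IFNAR2, whose kinases JAK1 and TYK2 activate transcription factors. These join IRF9, and the complex binds a DNA element, the interferon-stimulated response element, in front of its target genes. Several of the 10 genes have a low basal level in leukocytes, set in part by steady interferon signalling, and interferon gamma, which has its own receptor, also induces some of them, Ifi47 in particular.

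The 10 members cover different steps of the response. Isg15 encodes a ubiquitin-like modifier, and Usp18 the protease that removes it and also restrains receptor signalling. Ifit1, Ifit2 and Ifit3 encode proteins that bind foreign RNA or each other, Rsad2 encodes viperin, a radical SAM enzyme, and Oasl1 encodes a protein related to the 2′-5′ oligoadenylate synthetases that restrains the translation of Irf7. Irf7 encodes the transcription factor that amplifies interferon production. Ifi204 belongs to the p200 family of DNA sensors, and Ifi47 encodes an immunity-related GTPase. In GENCODE vM21 (GRCm38), Ifit2, Ifit3 and Ifit1 lie together on chromosome 19, between base 34550694 and base 34650009. The other members lie apart, with Isg15 on chromosome 4 (156199424 to 156200818) and Ifi47 on chromosome 11 (49076587 to 49096974). Ifit3 has a near-identical neighbour, Ifit3b, and Ifi204 has close relatives in its family, so reads that fit several copies make the counts of these genes uncertain.

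The promoters of 8 members were found in the RefSeq table (GRCm38.p6), as windows of 300 bases from 250 before to 50 after a gene start, 9 windows in all because Ifit2 has 2. Those of Usp18 and Ifi204 were not found there. The core of the response element was searched as GAAA, any 2 bases and GAAA, on both strands. It was present in 3.44% of all 32851 windows in the table and in the windows of 4 members, Isg15, Ifit1, Ifit3 and Rsad2. Of 36 windows of other interferon-stimulated genes, 15 held it. These 4 windows are shown because they carry the element that defines the family, and the window of Ifi47 is shown as the member that stood out in T cells and has no such match. Capitals mark the matches, on either strand.
Isg15 (chr4:156200769-156201068, minus strand): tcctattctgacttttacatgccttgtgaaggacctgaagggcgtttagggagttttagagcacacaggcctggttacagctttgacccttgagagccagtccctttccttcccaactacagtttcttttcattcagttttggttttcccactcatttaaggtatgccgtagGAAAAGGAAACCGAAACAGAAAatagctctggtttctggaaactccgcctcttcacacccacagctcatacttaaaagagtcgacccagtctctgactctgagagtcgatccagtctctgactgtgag
Ifit1 (chr19:34640639-34640938, plus strand): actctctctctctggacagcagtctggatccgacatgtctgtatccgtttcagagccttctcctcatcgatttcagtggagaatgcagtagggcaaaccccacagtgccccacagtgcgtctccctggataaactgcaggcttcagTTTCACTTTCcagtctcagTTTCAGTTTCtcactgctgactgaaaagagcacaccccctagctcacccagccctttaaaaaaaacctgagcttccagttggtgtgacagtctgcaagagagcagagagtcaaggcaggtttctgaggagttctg
Ifit3 (chr19:34583279-34583578, plus strand): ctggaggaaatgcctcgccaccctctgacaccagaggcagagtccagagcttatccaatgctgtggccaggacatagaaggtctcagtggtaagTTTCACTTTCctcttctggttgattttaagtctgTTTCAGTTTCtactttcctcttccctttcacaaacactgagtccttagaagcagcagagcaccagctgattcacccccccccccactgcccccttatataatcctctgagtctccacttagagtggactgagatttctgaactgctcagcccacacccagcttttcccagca
Rsad2 (chr12:26456403-26456702, minus strand): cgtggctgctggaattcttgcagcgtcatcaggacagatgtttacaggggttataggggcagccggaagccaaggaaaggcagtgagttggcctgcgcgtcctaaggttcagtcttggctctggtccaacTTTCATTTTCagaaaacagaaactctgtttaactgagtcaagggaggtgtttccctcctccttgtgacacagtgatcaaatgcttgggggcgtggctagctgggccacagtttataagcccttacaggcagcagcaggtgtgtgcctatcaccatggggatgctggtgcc
Ifi47 (chr11:49076337-49076636, plus strand): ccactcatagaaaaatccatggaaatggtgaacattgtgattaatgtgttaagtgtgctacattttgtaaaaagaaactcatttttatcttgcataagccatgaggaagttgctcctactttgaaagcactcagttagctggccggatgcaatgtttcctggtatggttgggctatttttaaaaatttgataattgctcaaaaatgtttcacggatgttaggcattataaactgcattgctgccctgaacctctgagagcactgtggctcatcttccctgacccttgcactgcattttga

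The Isg15 window held 3 overlapping matches, which started 78, 72 and 66 bases before the gene start. Ifit1 had 2 matches, 104 and 85 bases before the start, Ifit3 had 2, 156 and 122 bases before, and Rsad2 had 1, 120 bases before. The palindrome TTCNNNGAA, the core of the gamma-activated site, was present in 8.3% of all windows and, among the members, in 1 window of Ifit2. The windows of Oasl1, Irf7 and Ifi47 held neither set of letters. This says nothing about elements outside these windows or about elements that depart from these letters.

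Cells were assigned to lineages by clustering and marker genes. After filtering, 2422 naive cells, 10280 cells at 2 hours and 8324 cells at 3 days were kept, with a median of 7299, 877 and 5717 unique molecular identifiers (UMIs) per cell. A lineage held 107 to 576 naive cells, 744 to 4397 cells at 2 hours or 328 to 2159 cells at 3 days, except that macrophages numbered only 5 at 2 hours and were not evaluated there. Between 9 and 31 barcodes of a library also occurred in another. The markers of its own class had the highest summed level in each lineage and library, with 54340 to 156600 CPM in neutrophils and 4086 to 5270 CPM in T cells, except in monocytes at 2 hours, where neutrophil markers reached 5369 CPM and those of classical monocytes 2827 CPM. In these 2-hour monocytes B cell markers were at 1081 CPM, against 90.3 CPM in naive monocytes and 130 CPM at 3 days. In NK cells T cell markers were at 1671 CPM at 2 hours, against 570 CPM in naive lung and 473 CPM at 3 days. Of such foreign RNA, only that of neutrophils was subtracted below. Endothelial cells numbered 94, 52 and 339. Levels are counts per 1000000 UMIs (CPM) of that lineage in that library, and a gene entered a comparison where the mean of the 2 libraries was at least 10 CPM. In sums of this kind, fewer expressing cells and less RNA per cell cannot be told apart. Naive counts came from Cell Ranger 7.1.0 and the others from 6.0.0, so counting software and transplantation cannot be told apart in any comparison with naive lung.

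Neutrophils had the highest summed level of the members in every library, and naive neutrophils the highest of all. Isg15 alone made up 55.65%, 66.33% and 55.81% of the neutrophil sum in naive lung, at 2 hours and at 3 days. Without Isg15 the sum in neutrophils would lie below that in monocytes in each library, so this lead rested on Isg15. The summed level of the 10 members in neutrophils was 1081 CPM (interval 1039 to 1125) in naive lung, 735 CPM (interval 708 to 762) at 2 hours and 775 CPM (interval 758 to 792) at 3 days. The same sum in monocytes was 685, 433 and 546 CPM. The naive library therefore had the highest sum in both lineages, and T cells had theirs at 2 hours. In T cells the sum was 194 CPM (interval 183 to 206), then 517 CPM (492 to 543) and 180 CPM (171 to 189). The 2-hour sum thus stood 1.41 log2 units (interval 1.30 to 1.52) above the naive sum. NK cells gave 180, 290 and 255 CPM and B cells 103, 117 and 82.6 CPM. Macrophages gave 41.9 CPM in naive lung, the lowest sum of any lineage, and 196 CPM at 3 days. Of all member UMIs in the naive library, 38.1% were in neutrophils, which made up 16.0% of its cells. At 2 hours neutrophils held 2839 and T cells 1630 of 5433 member UMIs, and at 3 days monocytes held 41.4% and neutrophils 34.1%.

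**Figure D1:**
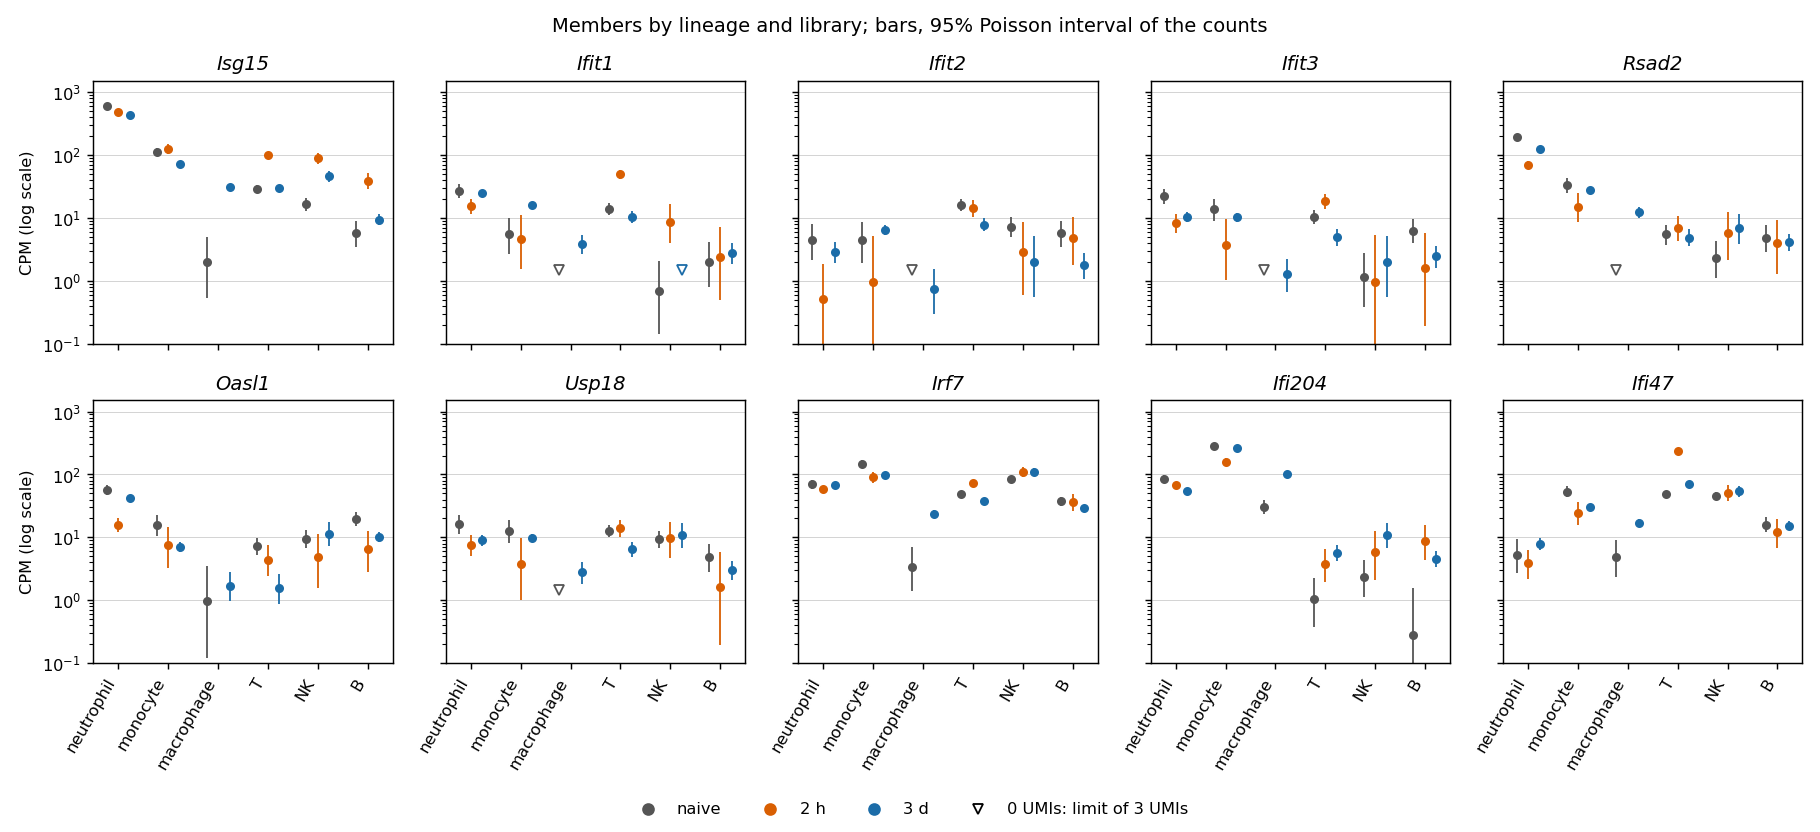
Level of each member by lineage in naive lung (grey) and at 2 hours (orange) and 3 days (blue), in CPM on a log scale, 1 point per library, with 95% Poisson intervals as bars and open triangles for 0 UMIs, drawn at the limit of 3 UMIs. Isg15 is highest in neutrophils at all times, Ifi204 in monocytes, and Ifi47 in T cells at 2 hours.

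The members did not all peak in the same cells. Of the 10 members, 5 had their highest level in naive neutrophils (Isg15, Ifit3, Rsad2, Oasl1 and Usp18), 2 in naive monocytes (Irf7 and Ifi204), 2 in T cells at 2 hours (Ifit1 and Ifi47) and 1 in naive T cells (Ifit2). For 8 members the lowest level was in naive macrophages, on 0 to 7 UMIs each, and for Ifit1 it was shared with NK cells at 3 days (0 UMIs). Such lows were not all clear. Oasl1 in naive macrophages (0.99 CPM, interval 0.12 to 3.56) overlapped with T cells at 3 days (1.59 CPM, interval 0.87 to 2.67). The lead was clear for Isg15, at 602 CPM in naive neutrophils, with its interval of 570 to 634 CPM above every other. It was not for Usp18, where naive neutrophils (16.4 CPM, interval 11.5 to 22.6), T cells at 2 hours (13.96 CPM), naive T cells (12.7 CPM) and naive monocytes (12.7 CPM) overlapped. Ifit3 in naive neutrophils (22.1 CPM, interval 16.4 to 29.2) also overlapped with T cells at 2 hours (18.4 CPM, interval 13.97 to 23.8). Across the 17 sums of lineage and library, which share libraries and depth, the correlation of each member's log2 level with the sum of the other members ranged from 0.80 for Rsad2 and 0.77 for Isg15 down to 0.07 for Ifit2 and -0.06 for Ifi47.

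Outside the set, the gene most like the summed level over these 17 points was Rtp4, an interferon-induced receptor chaperone, with a Pearson r of 0.91 on log2(CPM + 10). The next of the 10 most similar among 6266 genes of at least 20 CPM were Sema4d (0.88), Pstpip1 (0.86), Oas3 (0.855), S100a6, Mrpl33, Smox, Samsn1, Hp and Pglyrp1 (0.84 to 0.85). Of these 10, Rtp4 and Oas3 are on the list of other interferon-stimulated genes used below. All 10 had their highest level in neutrophils, as the summed level itself had, and some, such as Hp and Pglyrp1, are neutrophil genes.

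Across all lineages evaluated, 28 member-lineage pairs could be compared between 2 hours and naive lung. Of these, 5 were at least 2-fold higher at 2 hours, or 17.9%, against 8.61% of 36636 gene-lineage pairs over all genes, and 8 were at least 2-fold lower, or 28.6%, against 26.8%. The share of lower pairs was thus close to that of all genes. The 5 higher pairs were Isg15 in T, NK and B cells and Ifit1 and Ifi47 in T cells, all in lymphocytes, and 7 of the 8 lower pairs were in neutrophils and monocytes. Between 3 days and naive lung, 6 of 34 pairs (17.6%) were higher, against 5.06% of all pairs, and 3 (8.82%) were lower, against 18.2%. Of the 6, 4 were in macrophages. Isg15, Irf7 and Ifi47 in macrophages and Ifit1 in monocytes were under 10 CPM in naive lung and entered the comparison only through their level at 3 days, so the share of higher pairs is no support for a difference of the set. At 2 hours the same holds for Isg15 in B cells among the higher pairs. Among the lower ones, Ifit3 and Usp18 in neutrophils and Oasl1 in monocytes and B cells entered only through their naive level. From 2 hours to 3 days, 2 of 26 pairs (7.69%) were higher, against 12.3% of all pairs, and 6 (23.1%) were lower, against 7.11%, of which 5 were in T cells. Of these lower pairs, Ifit3 and Usp18 in T cells and Isg15 in B cells entered only through their 2-hour level. Among the higher ones, Ifit1 in monocytes entered only through its 3-day level. Nothing about the set is therefore read from these shares either.

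The typical gene was itself shifted between libraries. The median log2 ratio of all genes tested was between -0.26 and -0.35 in the 5 lineages at 2 hours against naive lung, and between -0.23 and 0.06 at 3 days. Among genes with no more intronic sequence than the members (at most 22.2 kb), the medians at 2 hours were between 0.09 and 0.16. Ratios below are as measured. With the median of all genes subtracted, 4 rather than 8 pairs were lower at 2 hours, namely Ifit3, Rsad2 and Oasl1 in neutrophils and Oasl1 in B cells. The medians of genes with no more intronic sequence than the members were positive. Subtracting those, which was not run, would leave all 8 pairs lower, so the count depends on the genes taken as background.

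**Figure D2:**
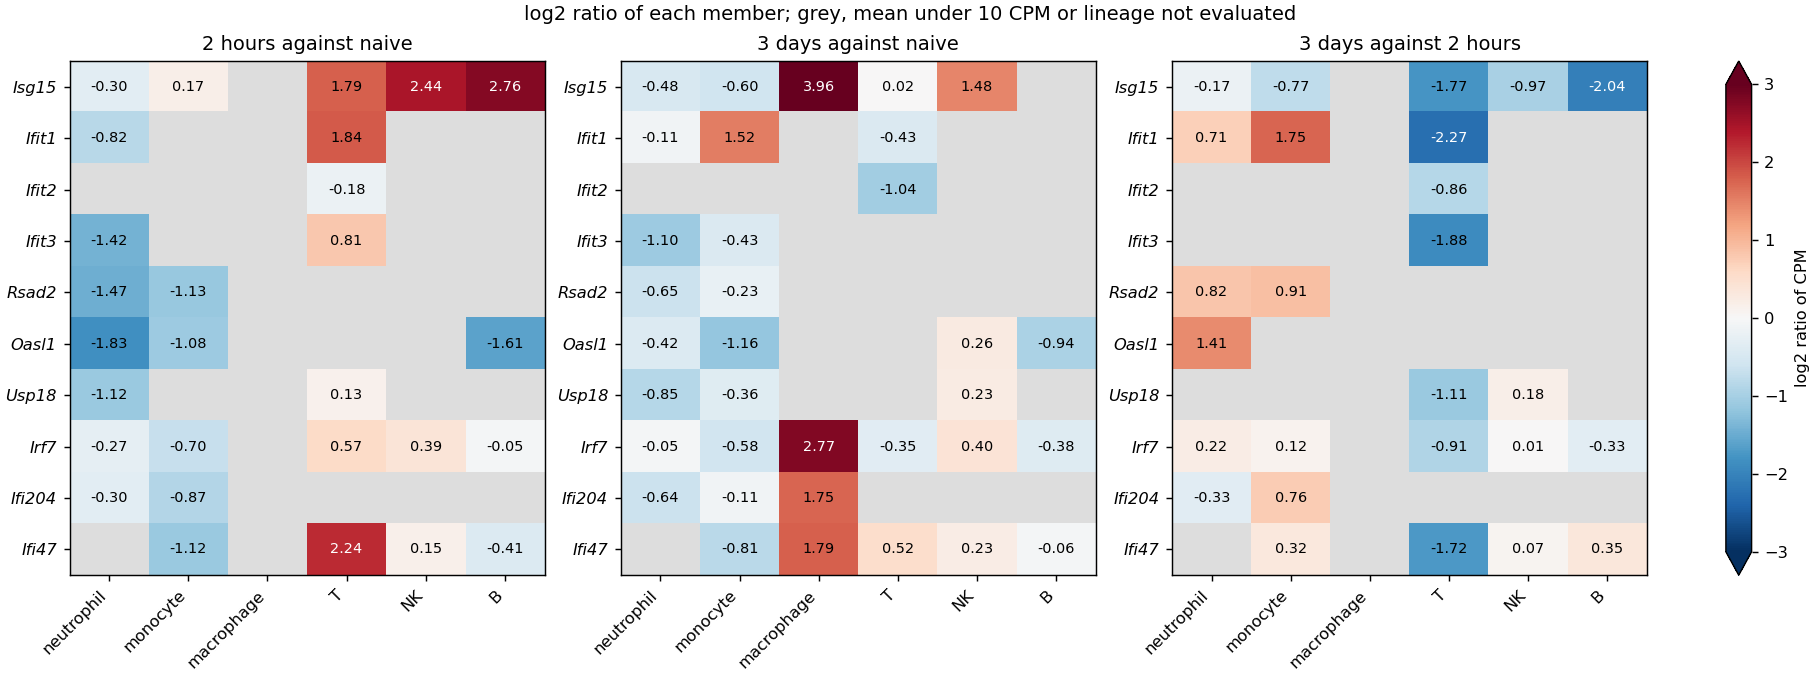
The log2 ratio of each member in each lineage for the 3 comparisons, as printed in each cell, with red for higher and blue for lower in the condition named before "against". Grey cells had a mean under 10 CPM or too few cells. The highest values at 2 hours stand in the T, NK and B columns, and lower values in the neutrophil and monocyte columns and for Oasl1 in the B column.

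Among the 5 lineages compared at 2 hours, T cells had the largest difference from naive lung in the summed level. Ifi47 was at 49.2 CPM in naive T cells (286 UMIs), 232 CPM at 2 hours (732 UMIs) and 70.3 CPM at 3 days (619 UMIs), a 4.72-fold difference at 2 hours (log2 ratio 2.24, interval 2.04 to 2.44). Ifit1 was at 13.9, 49.8 and 10.3 CPM (log2 ratio at 2 hours 1.84, interval 1.44 to 2.24). Isg15 was at 29.2, 101 and 29.5 CPM (log2 ratio 1.79, interval 1.51 to 2.06). All 3 genes were thus highest in the 2-hour library. At 3 days their log2 ratios to naive lung were 0.52 for Ifi47, -0.43 for Ifit1 and 0.02 for Isg15. Among the 7 members tested, 3 were at least 2-fold higher at 2 hours, against 7.25% of 7688 genes, and 0 lower, against 26.9%. Smaller differences were found for Ifit3 (10.48, 18.4 and 5.00 CPM) and Irf7 (48.8, 72.3 and 38.4 CPM). Ifit2 (16.2, 14.3 and 7.84 CPM) and Usp18 (12.7, 13.96 and 6.48 CPM) were within 0.2 log2 units of the naive level at 2 hours. At 3 days, 0 of 5 members tested in T cells were higher, against 2.04% of 7813 genes, and 1, Ifit2, was lower (log2 ratio -1.04), against 17.7%.

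The 2-hour T cells fell into 3 clusters, which differed in level. Cluster 3 was led by Igtp and Iigp1, which like Ifi47 encode immunity-related GTPases, with Gbp6 also among its leading genes, and 44 of the 3000 genes used for clustering were on the interferon lists. The summed level was 590 CPM (interval 556 to 626) in cluster 3, 445 CPM (401 to 493) in cluster 9 and 338 CPM (285 to 398) in cluster 20, whose leading genes were heat-shock genes. Each was above the 195 CPM of the naive T cell cluster. Ifi47 followed the same order, at 259, 214 and 149 CPM. When clustering was repeated without the interferon genes, the log2 ratio of Ifi47 at 2 hours was 2.24 and that of Isg15 1.77. By transcripts of the coreceptors, T cells with Cd8a or Cd8b1 and no Cd4 UMI had summed levels of 230, 433 and 180 CPM in the 3 libraries, and those with Cd4 alone 201, 524 and 196 CPM. Both groups were thus highest at 2 hours. The intervals at 2 hours (383 to 489 and 424 to 641 CPM) overlapped, and 1963 of the 2521 T cells at that time had UMIs of neither coreceptor.

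Among the members tested in NK and B cells, Isg15 was at least 2-fold higher at 2 hours, and in B cells Oasl1 was lower. Members under the limit of 10 CPM, which were not called, went both ways. From naive lung to 2 hours, Ifi204 in B cells was at 0.29 (1 UMI) and 8.86 CPM (11 UMIs), and Ifit3 at 6.29 and 1.61 CPM. In NK cells Ifit1 was at 0.70 (3 UMIs) and 8.72 CPM (9 UMIs), and Ifit2 at 7.26 and 2.91 CPM. In NK cells Isg15 was at 16.4 CPM in naive lung, 89.1 CPM at 2 hours and 45.6 CPM at 3 days (log2 ratios to naive 2.44, interval 1.98 to 2.91, and 1.48, interval 1.01 to 1.95). Irf7, the most abundant member in NK cells, was at 84.3, 111 and 111 CPM, and Ifi47 at 46.1, 51.4 and 54.1 CPM. Isg15 was the sole member that differed by at least 2-fold among those tested in NK cells. It was 1 of 3 tested at 2 hours, against 8.32% of genes higher, with 0 lower against 26.4%, and 1 of 5 at 3 days, against 4.31% higher, with 0 lower against 16.4%. In B cells Isg15 was at 5.72, 38.7 and 9.40 CPM, on 20, 48 and 99 UMIs (log2 ratio at 2 hours 2.76, interval 1.98 to 3.59). Oasl1 was at 19.7, 6.44 and 10.3 CPM, with 8 UMIs at 2 hours (log2 ratio -1.61, interval -2.88 to -0.56), and Irf7 at 37.5, 36.3 and 28.9 CPM. Of 4 members tested in B cells at 2 hours, Isg15 was higher, against 8.67% of genes, and Oasl1 lower, against 29.6%. At 3 days 0 of 3 were higher, against 3.02%, and 0 lower, against 19.1%.

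Neutrophil transcripts were present in the lymphocytes of all libraries and were more frequent after transplantation. S100a8, S100a9 and Retnlg together made up 359, 1497 and 1083 CPM of T cells in the naive, 2-hour and 3-day libraries, which equals 0.33%, 3.13% and 0.73% of the level in neutrophils of the same library. At that share neutrophil RNA would bring 15.3 CPM of Isg15 and 0.12 CPM of Ifi47 to T cells at 2 hours, where 101 and 232 CPM were measured. In NK cells it would bring 16.4 of 89.1 CPM, and in B cells 19.6 of 38.7 CPM of Isg15. With this RNA subtracted, the log2 ratio of Isg15 at 2 hours was 1.69 in T cells, 2.37 in NK cells and 2.11 in B cells. In B cells it was 1.62 without called doublets and 1.30 without cells that held at least 2 UMIs of another lineage's markers, whereas in T cells these removals gave 1.93 and 1.86.

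Neutrophils had lower levels of several members at 2 hours than in naive lung. Rsad2 was at 194 CPM in naive neutrophils (439 UMIs), 70.1 CPM at 2 hours (271 UMIs) and 124 CPM at 3 days (1297 UMIs), with a log2 ratio at 2 hours of -1.47 (interval -1.69 to -1.25). Oasl1 was at 56.2, 15.8 and 42.0 CPM (log2 ratio -1.83, interval -2.30 to -1.38). Ifit3 was at 22.1, 8.28 and 10.3 CPM, and Usp18 at 16.4, 7.50 and 9.08 CPM. Rsad2 and Oasl1 were thus lowest at 2 hours and intermediate at 3 days. Isg15 differed less, with 602, 487 and 433 CPM (log2 ratios -0.30 and -0.48), as did Irf7, with 69.9, 58.0 and 67.6 CPM. Of 8 members tested, 0 were higher at 2 hours, against 9.01% of 5459 genes, and 4 were lower, against 23.7%. At 3 days 0 were higher, against 6.84%, and 1, Ifit3, was lower, against 16.4%.

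The 2-hour neutrophils came in 3 clusters, none of which reached the naive level. The summed level was 805 CPM in cluster 0, 720 CPM in cluster 19, led by Ccl4, Ccl3 and Csf3, and 568 CPM in cluster 5, led by the granule genes Camp, Ngp and Ltf, against 1113 CPM in the naive neutrophil cluster. A further cluster of 255 cells at 3 days, closest to neutrophils by markers but left unnamed and led by Tnf, Ccl3 and Siglecf, had 237 CPM (interval 208 to 268) and 79.2 CPM of Isg15. This was under the 776 CPM of the 3-day neutrophil cluster.

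**Figure D3:**
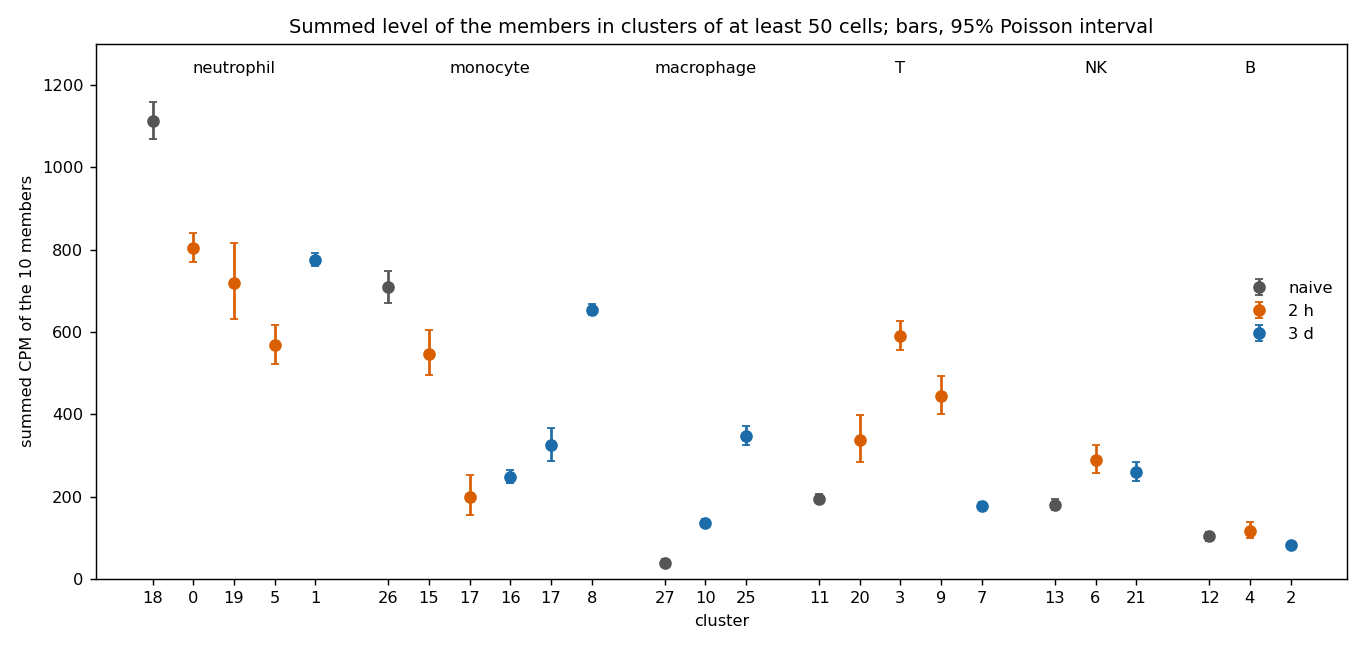
Summed CPM of the 10 members in each cluster of at least 50 cells, grouped by lineage and coloured by library, with 95% Poisson intervals. The naive neutrophil cluster (18) is the highest, the T cell clusters at 2 hours (3, 9 and 20) lie above the naive (11) and 3-day (7) clusters, and monocyte clusters at 3 days differ widely.

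In monocytes Ifi204 made the largest part of the sum, with Irf7 next in naive lung and at 3 days and Isg15 next at 2 hours. Ifi204 was at 288 CPM in naive monocytes (522 UMIs), 157 CPM at 2 hours (167 UMIs) and 266 CPM at 3 days (4799 UMIs). Irf7 was at 148, 91.4 and 99.1 CPM, and Ifi47 at 53.4, 24.5 and 30.5 CPM. Isg15 was at 111, 124 and 72.9 CPM. The first 3 genes had their highest values in naive lung, although the difference of Ifi204 between naive lung and 3 days was within its counting error (log2 ratio -0.11, interval -0.24 to 0.02), and the difference of Isg15 between naive lung and 2 hours was within its counting error (log2 ratio 0.17, interval -0.16 to 0.49). Neutrophil RNA, at 9.60% in these monocytes, would bring 46.8 of the 124 CPM. B cell RNA, whose markers were at 1081 CPM in monocytes at 2 hours, was not subtracted. Of 6 members tested, 0 were higher at 2 hours, against 9.97% of 7534 genes, and Rsad2, Oasl1 and Ifi47 were lower, against 26.4%. The intervals were wide for Rsad2 (16 UMIs at 2 hours) and for Oasl1 (8 UMIs), where the interval of -2.42 to 0.08 included 0. At 3 days Ifit1 was higher, against 3.16%, with 5.51 CPM on 10 naive UMIs and 15.9 CPM, and Oasl1 was lower, against 15.6%, of 9 tested. The Ifit1 call turned to a log2 ratio of -0.78 when only clusters closest to nonclassical monocytes were used, and the log2 ratio of the sum from -0.33 to -1.39. All 145 naive monocytes stayed in under this choice. Their classical markers summed to 5503 CPM and their nonclassical ones to 2692 CPM, so like cells were not compared.

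Monocyte clusters were not the same kind of cell in the 3 libraries. At 3 days the cluster of classical monocytes (cluster 8, 765 cells, led by Chil3 and Vcan) had a summed level of 654 CPM (interval 641 to 668), and a cluster of nonclassical monocytes (cluster 16, 433 cells, led by Cd300e and Ace) had 248 CPM (interval 232 to 265). Ifi204 was at 321 and 121 CPM and Isg15 at 92.0 and 17.9 CPM in these clusters. The naive cluster (cluster 26) scored closest to nonclassical monocytes but also had Vcan and F13a1 among its leading genes, and had 709 CPM. At 2 hours cluster 15 had 547 CPM, and cluster 17, which was led by heat-shock and surfactant genes, had 200 CPM. The difference within the 3-day library was therefore larger than that between the sums of the libraries.

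Macrophages could be compared only between naive lung and 3 days, and different cells made up the lineage. Markers of alveolar macrophages summed to 13810 CPM in naive lung and 805 CPM at 3 days. The naive macrophages were alveolar macrophages (102 of 107 cells in cluster 27), and those at 3 days were in a cluster led by Saa3 and Arg1 (cluster 10, 635 cells) and one with C1q genes (cluster 25, 165 cells). Ifi204 was at 30.5 CPM in naive lung and 102 CPM at 3 days (log2 ratio 1.75, interval 1.38 to 2.14). Isg15 was at 1.97 CPM on 4 UMIs and 30.8 CPM, Irf7 at 3.45 CPM on 7 UMIs and 23.5 CPM, and Ifi47 at 4.93 CPM on 10 UMIs and 17.04 CPM. All 4 members tested were higher, where 11.4% of 7951 genes were higher and 23.5% lower, but Isg15, Irf7 and Ifi47 could pass the limit of 10 CPM only by being higher at 3 days, so that nothing is read from this count. Ifit1, Ifit2, Ifit3, Rsad2 and Usp18 had 0 UMIs in naive macrophages, where 3 UMIs would be 1.48 CPM. Within the 3-day library the summed level was 348 CPM (interval 325 to 371) in the C1q cluster and 137 CPM (128 to 146) in the Saa3 and Arg1 cluster. Cell type and condition cannot be told apart in this comparison.

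Plasmacytoid dendritic cells, the best-known producers of type I interferon, were few. In the cluster that held them, cells with a Siglech UMI numbered 9, 18 and 27 in the 3 libraries and had Irf7 at 132, 106 and 136 CPM, whereas the other cells of the cluster had 41.3, 34.9 and 26.3 CPM.

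At the level of single cells, the members were sparse. To compare cells of unequal depth, each cell was thinned to 500 UMIs, which left out 340 of 4397 neutrophils and 57 of 1401 B cells at 2 hours and at most 41 cells of any other lineage and library. A UMI of any member was then found in 30.2% of naive neutrophils (interval 25.6 to 35.0), 22.8% at 2 hours (21.5 to 24.1) and 22.5% at 3 days (20.8 to 24.3). In T cells the shares were 8.16% (6.06 to 10.7), 20.5% (18.9 to 22.1) and 8.60%, whose interval overlapped that of naive T cells. Without thinning, T cells had 63.7%, 38.7% and 64.9%, lowest at 2 hours, where the median depth (9843, 1132 and 8185 UMIs) was also lowest. NK cells had 7.56%, 12.6% and 12.2%, and in B cells the shares were 4.16%, 4.76% and 4.13%. The T cell difference at 2 hours came mainly with Ifi47, found in 2.26%, 11.05% and 2.87% of thinned T cells. In thinned neutrophils, in which Ifi47 was at 3.88 to 7.84 CPM, the shares were 0.77%, 0.17% and 0.37%.

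**Figure D4:**
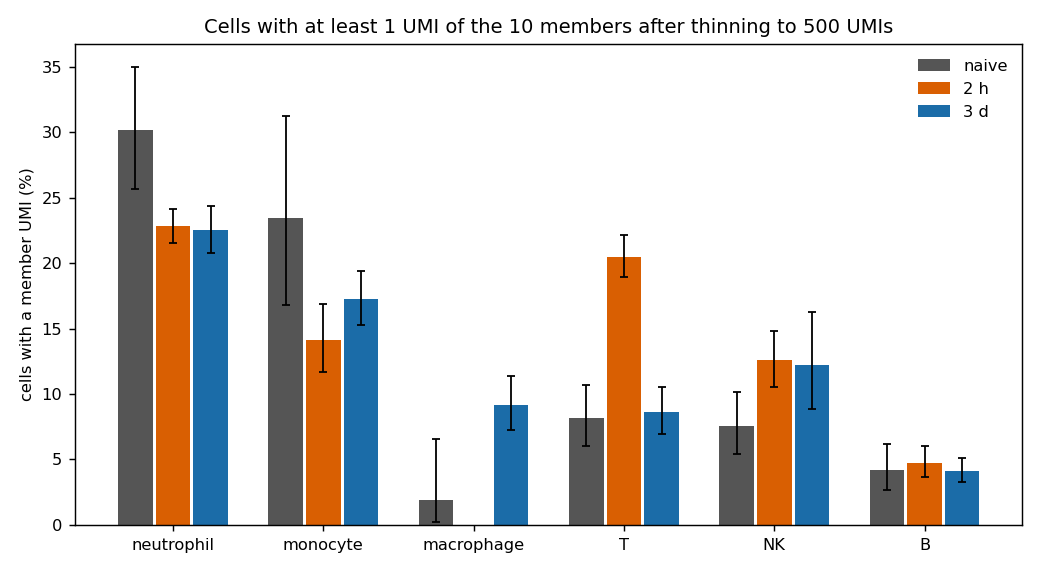
Percentage of cells with at least 1 UMI of the 10 members after thinning to 500 UMIs per cell, by lineage and library, with exact binomial 95% intervals. Neutrophils have the highest shares, and T cells are higher at 2 hours (20.5%) than in naive lung (8.16%) and at 3 days (8.60%).

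In the thinned cells, members met in the same neutrophils more often than the product of their shares gives. Isg15 and Rsad2 were both found in 12 of 388 naive neutrophils, where 5.28 would follow from the shares alone, in 45 cells at 2 hours against 19.9, and in 27 cells at 3 days against 11.9. These ratios of 2.27, 2.26 and 2.26 were close to each other in spite of the lower Rsad2 level at 2 hours. Isg15 and Oasl1 met in 18 neutrophils at 3 days against 6.19. Ratios in neutrophils were lower for Isg15 and Irf7 (1.57 at 2 hours, 1.72 at 3 days) and for Isg15 and Ifi204 (1.77 and 1.59). Neutrophil clusters of unequal level were pooled in these counts, and the ratios carry no interval. In T cells at 2 hours, Ifit1 and Ifi47 met in 11 of 2507 cells against 5.53, and Isg15 and Ifi47 in 13 against 10.8. Cells with 3 or more members were rare, at 2.84% of naive neutrophils and at most 1.38% of cells elsewhere.

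Upstream of the members, type I interferon genes were close to absent. The 18 genes of the list, Ifnb1 and the Ifna and related genes, had 3 UMIs in all kept naive cells, 2 in those at 2 hours and 9 in those at 3 days, of which 6 were Ifnb1 and 5 of these were in macrophages. At 2 hours, 0 UMIs of Ifnb1 in 10280 cells allow up to 0.0292% of cells with a UMI. Ifng, which encodes interferon gamma, had 231, 54 and 183 UMIs, and in NK cells was at 41.9, 39.7 and 62.6 CPM. Of the genes tested on the interferon gamma list, Ifngr2 was at least 2-fold higher at 2 hours in T cells (1 of 3, against 7.25% of all genes). It was also higher in NK cells (1 of 4, against 8.32%), as was Ciita in monocytes (1 of 4, against 9.97%). Ifngr2 in NK cells (2.81 CPM in naive lung) and Ciita in monocytes (6.61 CPM) entered only through their 2-hour level. How much RNA of T cells in NK cells or of B cells in monocytes added to these levels was not tested. The sort left out donor cells and most stromal cells, so their interferon transcripts were not measured here. Receptor transcripts were present in each lineage, with Ifnar1 in T cells at 116, 124 and 165 CPM and in neutrophils at 176, 205 and 177 CPM. Tyk2, which encodes a receptor-associated kinase, was at least 2-fold lower at 2 hours in each of the 5 lineages compared. In these lineages 23.7% to 29.6% of all genes were at least 2-fold lower. The log2 ratios of Tyk2 in neutrophils (-1.04) and B cells (-1.17) were near the limit, where the medians of all genes were -0.26 and -0.35. Its 2-hour levels in T and B cells were under 10 CPM (7.93 and 9.67 CPM).

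Of the negative regulators, Socs1 and Socs3, which encode inhibitors of JAK kinases, were higher at 2 hours. Socs1 in T cells was at 52.8, 204 and 78.6 CPM, and Socs3 at 114, 438 and 248 CPM (log2 ratios at 2 hours 1.95 and 1.94). In neutrophils, where members were lower, Socs3 was also higher, at 137 and 746 CPM (log2 ratio 2.44). Of the 4 regulators tested in each of neutrophils, monocytes, T cells and NK cells, Socs1 and Socs3 were at least 2-fold higher, where 7.25% to 9.97% of all genes were. Socs1 in neutrophils and monocytes was under 10 CPM in naive lung (6.19 and 6.61 CPM) and entered only through its 2-hour level. In the same comparisons Adar was lower in monocytes (log2 ratio -1.92) and Ptpn2 in NK cells (-1.24). In B cells Socs3 was higher, and Adar (-1.53) and Ptpn2 (-1.07) were lower, of 3 tested. Among nucleic acid sensors and inducing genes, 8 of 12 tested in monocytes were at least 2-fold lower at 2 hours, where 26.4% of all genes were, such as Tlr7 (141 to 42.4 CPM), Irf5 (333 to 134 CPM) and Ifih1 (64.4 to 26.4 CPM). Of the lower genes, Cgas (9.42 CPM), Ikbke (8.48 CPM) and Ticam1 (5.65 CPM) were under 10 CPM at 2 hours and entered through their naive level. Monocytes at 2 hours also held foreign RNA and were not the same kind of cell as in naive lung. In neutrophils 2 of 8 were lower, Ifih1 (43.4 to 9.57 CPM) and Irf5, a share near the 23.7% of all genes. There 1 of 8, Tlr7 (6.19 to 15.8 CPM), was higher, against 9.01%, and it entered only through its 2-hour level. In T cells Zbp1, a nucleic acid sensor, was higher (37.8 to 95.8 CPM) and Ikbke, which encodes a kinase for IRF3 and IRF7, lower (70.1 to 20.6 CPM). Each was 1 of 7 tested there, against 7.25% of all genes higher and 26.9% lower.

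A list of other interferon-stimulated genes, 38 of which were in the tables, was described by its counts. In T cells at 2 hours, 6 of 26 tested were at least 2-fold higher and 4 lower, against 7.25% and 26.9% of all genes, with a median log2 ratio of 0.03 where that of all genes was -0.32. The largest were Dtx3l, a ubiquitin ligase (43.7 to 232 CPM), Slfn5 (24.2 to 71.1 CPM) and Ly6a, which encodes the surface protein Sca-1 (81.6 to 192 CPM). Epsti1 (344 to 118 CPM), Ddx60 and Herc6 were lowest. In NK cells 6 of 24 were higher, led by Ly6a, Slfn5 and Ifi27l2a (26.5 to 110 CPM), and 7 lower, against 8.32% and 26.4% of all genes, so the share of lower genes was near that of all genes. In B cells 1 of 22 was higher and 8 lower, against 8.67% and 29.6%, with a median of -0.78 where that of all genes was -0.35. In neutrophils 0 of 25 were higher at 2 hours and 12 lower, against 9.01% and 23.7%, with a median of -0.85. In monocytes 0 of 32 were higher and 23 lower, against 9.97% and 26.4%, with a median of -1.30. Epsti1 was among the lowest in both (166 to 24.3 CPM in neutrophils, 219 to 48.1 CPM in monocytes), as was Oasl2 (235 to 68.3 CPM and 89.2 to 19.8 CPM). At 3 days the medians were -0.12 in neutrophils, -0.45 in monocytes, -0.24 in T cells, 0.09 in NK cells and -0.20 in B cells. Those of all genes were 0.06, -0.01, -0.09, -0.03 and -0.06. In the same order, 0 of 27, 0 of 33, 0 of 26, 2 of 23 and 0 of 22 were higher, and 2, 7, 4, 0 and 0 lower. Of all genes in these lineages, 2.04% to 6.84% were higher and 15.6% to 19.1% lower. In macrophages 11 of 25 were higher and 1, Siglec1, lower, against 11.4% and 23.5%, with a median of 0.96. Low genes of this list, too, entered only through the library in which they were high. Monocytes and macrophages were not the same kind of cell in the libraries compared, and monocytes at 2 hours held foreign RNA. Cell type and condition therefore cannot be told apart in the counts of these lineages. Nearly all neutrophils were in cluster 18 in naive lung and in clusters 0, 5 and 19 at 2 hours. Their own markers summed to 118800 and 54340 CPM. Cell state and condition cannot be told apart there either.

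**Figure D5:**
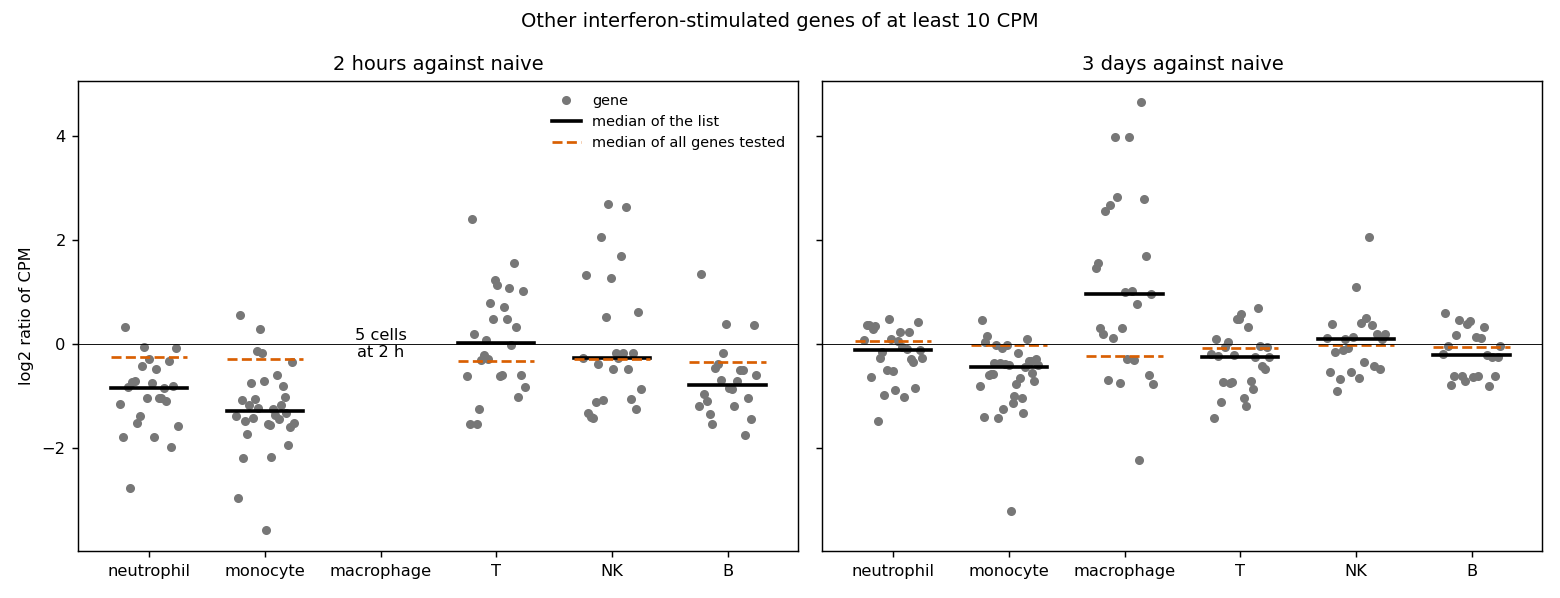
The log2 ratio of each other interferon-stimulated gene with a mean of at least 10 CPM (grey points), the median of the list (black line) and the median of all genes tested (dashed orange line), by lineage, at 2 hours (left) and 3 days (right) against naive lung. At 2 hours the median of the list lies below that of all genes in neutrophils, monocytes and B cells, near it in NK cells and above it in T cells, and at 3 days it lies above it in macrophages.

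Antibody counts gave no reading of the response at the surface. The antibody panel in both transplant libraries included CD317, the product of the interferon-stimulated gene Bst2, with 8 and 13 counts in all kept cells, CD169 with 0 and 0, and PDL1 with 26 and 19. Isotype controls had 155 to 2733 counts.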

How the data were processed

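Single-cell RNA-Seq of CD45.1-sorted lung cells gave 3 libraries, 1 per condition. The deposited values were unnormalized UMI counts per gene and cell, which the authors made with Cell Ranger on mm10. Per the file headers the version was 7.1.0 (naive) or 6.0.0 (both transplants), and the sources used here do not say whether introns were counted. The methods name a 3′ kit and the labels a 5′ and a 3′ kit. Total UMIs were 28538529, 10749100 and 70750470.

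The limits of the study's methods were applied, namely 200 to 6000 genes, at most 25000 UMIs and less than 10% of them mitochondrial. Seurat 5.3.0 with sctransform 0.4.2 clustered them (30 components, resolution 0.8). Clusters were named from marker lists, and 3 cells (Jchain at 1% or more of UMIs) were left out of the lineages. Scrublet in scanpy 1.11.5 called 40, 403 and 277 doublets, which were kept in the main analysis. UMIs were summed per lineage and library. Ratios carry exact conditional intervals, shares exact binomial (Clopper-Pearson) intervals and levels exact Poisson intervals. A count of 0 was set to 3 UMIs in ratios. A difference of at least 2-fold was called, with no p-value. The ratios were tested on simulated data.

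The members and gene lists were chosen with earlier results of these data known. All members are reported. From the wider lists, up to 3 genes with the largest ratios are named beside the counts, with Ifnar1, Tyk2 and other genes named for their role chosen after their values were seen. The 10 most similar genes were taken by Pearson correlation over 17 sums, because the macrophages at 2 hours (5 cells) were left out of all comparisons. Of the 40 other interferon-stimulated genes listed, 38 were analysed here.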

Additional observations from a re-analysis of the deposited data

How the results depend on the processing

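The counts of member-lineage pairs at least 2-fold higher or lower were recomputed under the alternatives set with the design and 2 added after the data had been seen. They stayed within 1.5 times under cell-by-cell calls of lineages (with or without the cell filter), removal of doublets or of cells with UMIs of other lineages, means over cells, CPM outside ribosomal, mitochondrial and immunoglobulin genes, clustering without interferon genes and subtraction of neutrophil RNA, and, as an added alternative, without cluster 17 and called doublets. With thinning to 500 UMIs, 8 pairs rather than 3 were lower at 3 days against naive lung, and 4 rather than 2 were higher at 3 days against 2 hours. After subtraction of the median of all genes, 4 rather than 8 were lower at 2 hours against naive lung and 10 rather than 6 were lower at 3 days against 2 hours. A minimum of 5 CPM gave 6 higher pairs at 3 days against 2 hours. A minimum of 20 CPM gave 4 lower pairs at 2 hours, 2 higher and 0 lower pairs at 3 days against naive lung, and 1 higher pair at 3 days against 2 hours, with fewer genes tested. With only nonclassical monocyte clusters, the other added alternative, 7 pairs were lower at 3 days against naive lung and 1 was higher at 3 days against 2 hours, and Ifit1 in monocytes turned to log2 ratios of -0.78 and -0.56 in these comparisons. All naive monocytes stayed in under this alternative. The shares of all genes called under these settings are not given here, so nothing about the set is read from these counts.

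Under thinning, Oasl1 in B cells at 2 hours (0.041), Ifit1 in monocytes at 3 days (-1.80) and Isg15 and Ifi47 in macrophages at 3 days (-1.32 and -1.49) changed sign. The thinned naive macrophages held 2 member UMIs in all, so their genes stood at the limit for 0 counts. The summed level in T cells at 2 hours against naive lung was between 0.97 and 1.74 on the log2 scale under all alternatives run, lowest without Ifi47, and that of neutrophils between -0.96 and -0.30. In B cells it was between -0.26 and 0.53, so that no direction can be given. No paired analysis was possible because each condition had 1 library. The depth at 2 hours, where lineages held 1032076 to 3865180 UMIs, limits what can be seen of members under 10 CPM. The intervals leave out the spread between mice, which 1 library per condition cannot show.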

Other observations

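Outside the 6 lineages, endothelial cells, which lack CD45, had a summed member level of 692 CPM (interval 597 to 797) in 94 naive cells, 116 CPM (49.9 to 228) in 52 cells at 2 hours and 313 CPM (upper bound 354) in 339 cells at 3 days. Their median depth was between 873 and 1292 UMIs. Clustering without the interferon genes gave an endothelial cluster of 88, 35 and 169 cells in the 3 libraries, so membership depended on the clustering. Basophils had 157 CPM (85.9 to 264) in 68 cells at 2 hours and 260 CPM (223 to 302) in 111 cells at 3 days, with Isg15 at 146 and 112 CPM.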
